A study of Mus musculus with 4 samples.

Results

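The BCL2 family genes that set whether a cell lives or dies were described in single thymocytes of FVB/N mice. The 10 members were fixed by name, 3 survival genes (Bcl2, Bcl2l1 and Mcl1), 2 effectors (Bax and Bak1) and 5 BH3-only genes (Bcl2l11, Bad, Bid, Bbc3 and Pmaip1), and all 10 were found among the 31053 genes of the matrices. Transcripts were counted as unique molecular identifiers (UMIs) by droplet-based 3′ sequencing in 4 thymus libraries, each of 1 animal. The wild type (WT) and the preleukemic Tal1/Lmo2 mouse were 6 weeks old, and the leukemic group of the same line, 2 mice with T-cell acute lymphoblastic leukemia named T-ALL#1 and T-ALL#2, was 3 months old, so leukemia and age cannot be told apart. The line carries Tal1 and Lmo2 as transgenes under the proximal Lck promoter, which is active in thymocytes, and no animal was treated. Thymi were dissociated, red cells were lysed and viable single cells were sorted.

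Mitochondrial cell death is set by binding between members of this family. Survival proteins (BCL2, BCL-XL from Bcl2l1, and MCL1) hold the effectors BAX and BAK in check, and BH3-only proteins release or directly engage these effectors, which then open the outer mitochondrial membrane. Thymocytes are known to change their survival proteins as they mature, with BCL2 prominent before and after the CD4+CD8+ double-positive (DP) stage and BCL-XL prominent in DP cells. MCL1 is required at several stages, and BIM (Bcl2l11) and PUMA (Bbc3) are known for the death of thymocytes that fail selection or are stressed.

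The kept cells, those with over 500 genes detected, mitochondrial UMIs below 10% and a number of genes no more than 3 SD above their library's mean, numbered 4115 in WT, 5530 in the preleukemic thymus, 5770 in T-ALL#1 and 1975 in T-ALL#2. Their UMIs summed to between 20492579 (WT) and 70561237 (T-ALL#1), and the median per cell was 3686 in WT, 4859 in the preleukemic thymus, 8725.5 in T-ALL#1 and 17581 in T-ALL#2. Levels are therefore given as UMIs scaled to the same total in each library (CPM), with exact Poisson 95% intervals that cover counting error only. T-ALL#2 stood apart, since its matrix held all barcodes and cells had to be called here at 3416 UMIs or more. Between 0 and 9 cell barcodes were shared by any pair of libraries. Tal1 had 0 UMIs in WT and 417 CPM in the preleukemic thymus, 68.4 CPM in T-ALL#1 and 234 CPM in T-ALL#2, which goes with the genotypes. Lmo2 was at 4.60 CPM in the preleukemic thymus and at 0.276 to 0.976 CPM in the others, lower in both leukemias than in WT. The WT and preleukemic libraries, labelled male, held 1437 and 1893 CPM of Xist and 0 UMIs of Ddx3y, which goes against their labelled sex. T-ALL#1, labelled female, held 1932 CPM of Xist and 0 UMIs of Ddx3y, and T-ALL#2, labelled male, held 0.083 CPM of Xist and 40.6 CPM of Ddx3y, so T-ALL#2 stood apart from the other 3 in these genes. All 5 T-cell markers were found in all 4 libraries, at a summed level of 2604 to 4569 CPM. In the preleukemic thymus 63.5% of cells had no UMI of Cd4, Cd8a or Il2ra, and 3 markers of gamma-delta T cells summed to 1447 CPM, against 38.7 to 202 CPM in the other libraries. By surface staining the paper found no rise of gamma-delta cells in the preleukemic thymus. It proposes that such transcripts there come from germline transcription in progenitors. The part of these differences in the results between libraries was not tested.

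Start sites of 9 members were held in the RefSeq promoter table (GRCm38.p6), with 15 starts in all. The 250 bases before the start are shown for Bcl2, Mcl1 and Bax, whose levels separated the leukemias from WT in all cells and in 1 shared stage, and for the 1 of 3 starts of Bcl2l1 that held the motif searched. Bcl2 lies at chr1:106538178-106714274 on the minus strand, Mcl1 at chr3:95658788-95663176 on the plus strand, Bax at chr7:45461697-45466898 on the minus strand and Bcl2l1 at chr2:152780668-152831728 on the minus strand (GENCODE M21, GRCm38). The windows printed are chr1:106714291-106714540, chr3:95658471-95658720, chr7:45466899-45467148 and chr2:152831729-152831978, each read 5′ to 3′ on the strand of its gene. Capitals mark CAGNTG on either strand (CAGNTG or CANCTG as read), the form of E-box that TAL1 with its E-protein partners is known to bind.
Bcl2: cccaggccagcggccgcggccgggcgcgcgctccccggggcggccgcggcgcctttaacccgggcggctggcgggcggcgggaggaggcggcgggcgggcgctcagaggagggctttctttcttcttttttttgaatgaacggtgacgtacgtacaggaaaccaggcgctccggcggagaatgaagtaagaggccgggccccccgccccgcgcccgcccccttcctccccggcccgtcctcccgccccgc
Mcl1: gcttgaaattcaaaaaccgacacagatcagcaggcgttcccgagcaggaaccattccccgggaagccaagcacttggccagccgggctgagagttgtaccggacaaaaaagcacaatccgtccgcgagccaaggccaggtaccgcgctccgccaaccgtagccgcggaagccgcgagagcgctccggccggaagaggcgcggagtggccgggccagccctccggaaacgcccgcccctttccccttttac
Bax: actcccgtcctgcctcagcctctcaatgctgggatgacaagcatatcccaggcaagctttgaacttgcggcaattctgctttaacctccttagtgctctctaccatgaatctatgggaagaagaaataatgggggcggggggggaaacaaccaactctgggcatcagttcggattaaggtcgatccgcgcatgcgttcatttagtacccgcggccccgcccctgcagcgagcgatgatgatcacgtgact
Bcl2l1: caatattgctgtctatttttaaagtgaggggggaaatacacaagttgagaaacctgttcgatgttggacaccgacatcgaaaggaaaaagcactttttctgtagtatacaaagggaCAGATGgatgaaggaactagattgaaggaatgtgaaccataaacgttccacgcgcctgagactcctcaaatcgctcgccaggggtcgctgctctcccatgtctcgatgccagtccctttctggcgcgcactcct
The motif was found in 3 of the 15 member windows, 1 window each of Bcl2l1, Bad and Bbc3, and in 44.8% of all 32851 windows of this length in the table. In the Bcl2l1 window it began 134 bases before the start. A match is a description of the letters only, and none in a window says only that these letters are not there.

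Bcl2, the survival gene that names the family, had its highest level in WT and its lowest in the leukemias. Over all kept cells WT held 287 CPM (279 to 294), the preleukemic thymus 90.3 CPM (87.4 to 93.3), T-ALL#1 22.2 CPM (21.1 to 23.3) and T-ALL#2 13.7 CPM (12.5 to 14.9). The intervals of the 4 libraries did not overlap. Mcl1, which encodes a survival protein of short half-life, was lower in each library in the same order, at 452 CPM in WT, 236 CPM in the preleukemic thymus, 158 CPM in T-ALL#1 and 123 CPM in T-ALL#2. Bcl2l1 did not follow that order, with 77.2 CPM in WT, 17.6 CPM in the preleukemic thymus, 32.8 CPM in T-ALL#1 and 11.9 CPM in T-ALL#2.

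Bax, the effector that moves to mitochondria when released, was higher in both leukemias than in the other libraries. WT stood at 103 CPM (98.2 to 107) and the preleukemic thymus at 112 CPM (109 to 115), while T-ALL#1 reached 235 CPM (231 to 238) and T-ALL#2 reached 251 CPM (245 to 256). Bak1, the effector that resides on mitochondria, spanned a narrow range of 37.5 CPM (preleukemic) to 52.8 CPM (T-ALL#1).

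Of the BH3-only genes, Bcl2l11 was highest in WT at 58.6 CPM and lay between 21.2 and 31.5 CPM in the 3 transgenic libraries. Bid, which links death receptors to mitochondria, was lowest in WT at 15.7 CPM and lay between 27.9 and 35.2 CPM in the others. Bad, which binds BCL2 and BCL-XL, ranged from 26.4 CPM in WT to 34.8 CPM in T-ALL#1. Bbc3 was at 28.1 CPM in WT, 23.4 CPM in the preleukemic thymus, 12.7 CPM in T-ALL#1 and 23.6 CPM in T-ALL#2, so T-ALL#1 stood below the other 3. Pmaip1, which encodes NOXA, was scarce throughout, at 1.97 to 4.88 CPM from 55 to 191 UMIs a library.

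**Figure D1:**
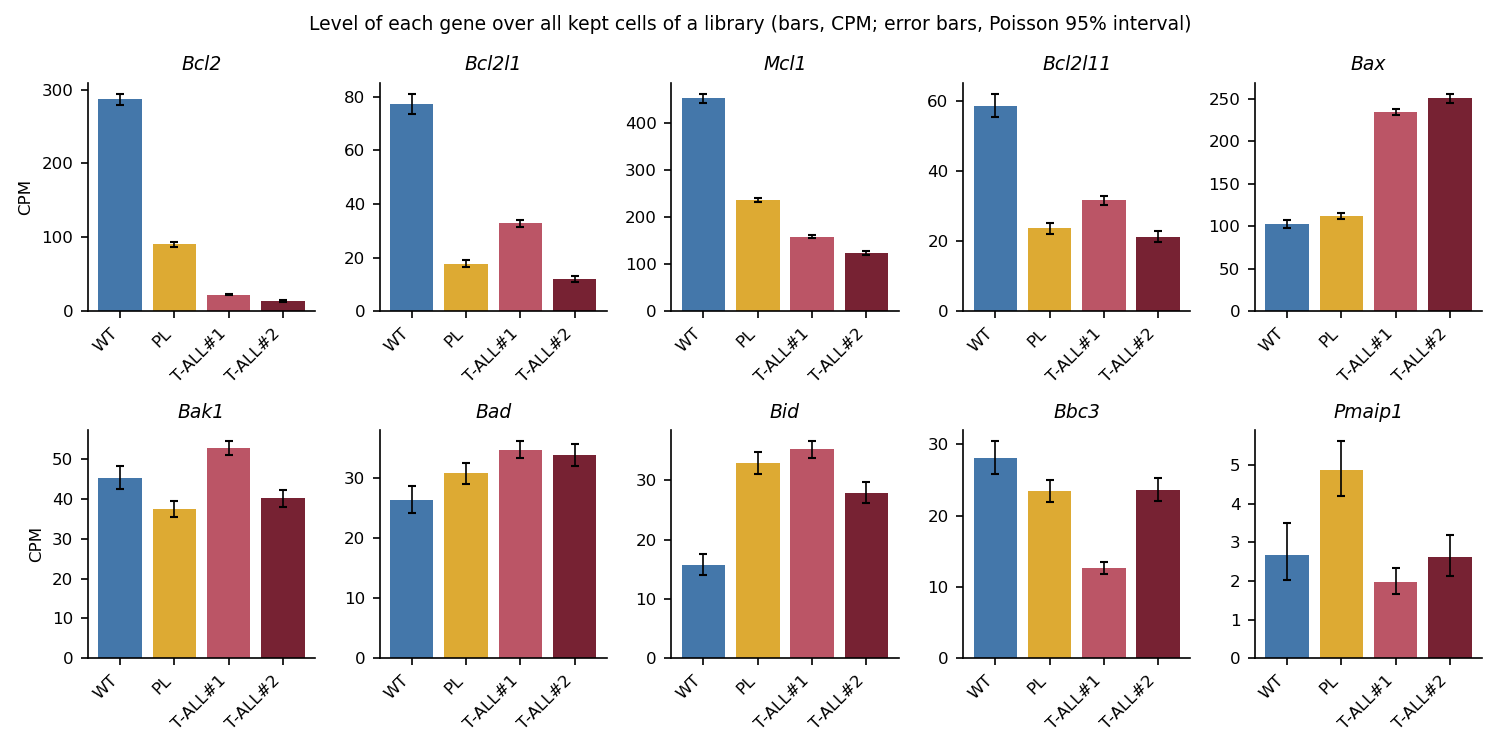
Level of each member over all kept cells of a library, as bars in CPM with exact Poisson 95% intervals, for WT, preleukemic (PL), T-ALL#1 and T-ALL#2. Bcl2 descends from 287 to 13.7 CPM across the libraries as drawn, while Bax is at 235 and 251 CPM in the leukemias and at 103 and 112 CPM in the other libraries.

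The share of cells with a UMI moves with depth, so cells were also thinned to 2000 UMIs each, leaving out shallower cells (991 in WT, 350 preleukemic, 94 in T-ALL#1 and 0 in T-ALL#2). After thinning, the share of cells with Bcl2 was 27.2% for WT, 13.9% for preleukemic, 4.07% for T-ALL#1 and 2.68% for T-ALL#2. Without thinning the shares were 34.6%, 29.0%, 16.3% and 19.6%, and T-ALL#2 was then above T-ALL#1 despite its lower CPM. Thinned shares of Mcl1 were 62.4%, 42.0%, 33.4% and 24.9% in the same order of libraries, against 80.5%, 73.2%, 79.0% and 85.4% unthinned. Those of Bax were 17.6% in WT, 18.0% in the preleukemic thymus, 33.2% in T-ALL#1 and 32.3% in T-ALL#2, against 32.3%, 43.0%, 73.4% and 86.4% unthinned. No set of cells without these genes was defined here, so no share of cells was taken as background. In droplets of T-ALL#2 with under 100 UMIs, Bcl2 stood at 17.1 CPM (11.6 to 24.3), Mcl1 at 132 CPM and Bax at 184 CPM, so free RNA in that library carried Bcl2 and Mcl1 at about their level in its cells.

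WT and preleukemic are 1 library each, so no test of levels between groups was run. Members were called by a ratio of 2-fold or more in either direction among genes with a mean of at least 5 CPM. Pmaip1 was under that mean in all 5 comparisons, so 9 members were measured in each. From WT to the preleukemic thymus 4 of 9 members passed, against 10.1% of all 9401 genes measured. Bcl2l1 was 4.39-fold lower (ratio 0.228, 0.208 to 0.249), Bcl2 3.17-fold lower (0.315, 0.302 to 0.328) and Bcl2l11 2.49-fold lower, and Bid was 2.10-fold higher (1.85 to 2.38). Mcl1 was 1.91-fold lower and did not reach the limit. The log2 ratio of Bid was 1.07, and 0.42 to 0.71 with cells thinned, cells weighted equally, no upper limit on genes or cells with other-cell markers left out, all short of 2-fold. TMM factors, which center ratios on the bulk of genes, shifted this comparison by 0.08 on the log2 scale, and genes past 2-fold were 45.1% higher without and 49.9% with them.

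From the preleukemic thymus to T-ALL#1, 2 of 9 members passed, against 17.3% of 9230 genes. Bcl2 was 4.06-fold lower (ratio 0.246, 0.232 to 0.261) and Bax 2.10-fold higher (2.03 to 2.17). From the preleukemic thymus to T-ALL#2, 2 of 9 members passed, against 31.4% of 9062 genes, and they were again Bcl2, at 6.61-fold lower, and Bax, at 2.24-fold higher (2.16 to 2.32). Bcl2l1 was 1.87-fold above preleukemic for T-ALL#1 and 1.48-fold below it for T-ALL#2. Both comparisons share the preleukemic thymus. TMM factors raised all ratios to the preleukemic thymus by 0.27 (T-ALL#1) and 0.51 (T-ALL#2) on the log2 scale. With them genes past 2-fold were 51.1% higher in T-ALL#1 and 46.5% higher in T-ALL#2, against 29.8% and 13.0% without. The log2 ratio of Bcl2 was then -1.75 in T-ALL#1 and -2.21 in T-ALL#2, and that of Bax was 1.34 and 1.67. Bcl2l1 of T-ALL#1 passed 2-fold with TMM factors, at a log2 ratio of 1.17, while that of T-ALL#2 moved from -0.56 to -0.05, so its lower level there depends on the scaling. In T-ALL#2 the sign of Bcl2l11 (-0.15 without, 0.36 with) and Bid (-0.24 without, 0.27 with) turned with the scaling, so neither has a direction there.

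The comparison was repeated within 1 state, DP cells (at least 1 UMI of Cd4 and of Cd8a) outside the cell cycle, which gave 1612 WT cells, 1708 of T-ALL#1 and 179 of T-ALL#2. In these cells Bcl2 was at 158 CPM in WT, 15.7 CPM in T-ALL#1 and 8.03 CPM in T-ALL#2, or 10.0-fold and 19.7-fold lower than in WT. The T-ALL#2 level lay below the 17.1 CPM of Bcl2 in free RNA of that library, and the part of free RNA in it was not tested. Mcl1 was at 629, 279 and 192 CPM in that order, or 2.25-fold and 3.27-fold lower. Bax was at 83.5, 183 and 189 CPM, or 2.19-fold (1.97 to 2.44) and 2.26-fold (1.96 to 2.61) higher. In T-ALL#1, 5 of 9 members passed 2-fold against 19.6% of 9144 genes, with Bbc3 2.33-fold lower and Bid 2.17-fold higher beside these 3. In T-ALL#2, 5 of 9 passed against 40.8% of 9070 genes, with Bcl2l1 5.37-fold and Bcl2l11 2.93-fold lower beside Bcl2, Mcl1 and Bax. TMM factors took Mcl1 and Bbc3 of T-ALL#1 to log2 ratios of -0.92 and -0.97, short of 2-fold, and raised all ratios by 0.25 (T-ALL#1) and 0.50 (T-ALL#2). Genes past 2-fold were then 57.1% higher in T-ALL#1 and 48.9% in T-ALL#2, against 36.6% and 21.2% without. Fewer transcripts per cell and fewer cells with a transcript cannot be told apart in such sums.

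**Figure D2:**
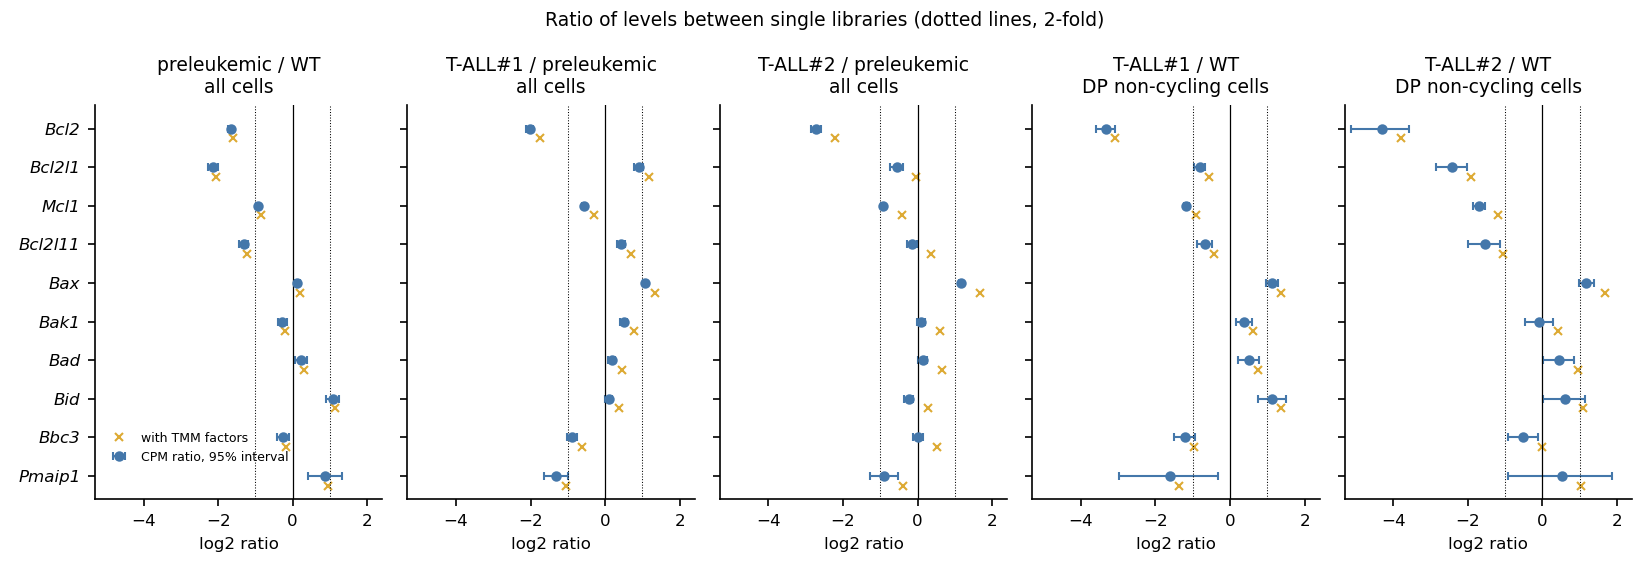
Log2 ratio of the level of each member between single libraries, in 5 panels, with 95% intervals of the ratio from counting error (circles) and the same ratio with TMM factors (crosses). Dotted lines mark 2-fold. Bcl2 lies left of -1 in each panel and Bax right of 1 in the 4 panels with a leukemia.

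Stages were read from UMIs of Cd4, Cd8a and Il2ra (CD25), which gave DP cells, CD4-only cells, CD8-only cells and cells with neither Cd4 nor Cd8a (double-negative, DN), with or without Il2ra. A cell with no UMI of a gene may still express it, so these sets follow detection. Free RNA of T-ALL#2 held Cd4 at 10.5, Cd8a at 89.3 and Il2ra at 133 CPM, and its part in the sets was not tested. The paper reports reduced Cd4 and Cd8a mRNA in preleukemic thymocytes, some of which still fell in its DP clusters. A preleukemic set may therefore not match the WT set of the same name. Some sets were small, with 44 DN Il2ra+ cells in WT and 46 CD4-only cells in the preleukemic thymus. Bcl2 was lowest in DP cells in each of the 4 libraries, beyond counting error in 3 of them and not in T-ALL#2. In WT it was at 528 CPM in CD4-only cells, 489 CPM in DN Il2ra- cells, 275 CPM in CD8-only cells, 247 CPM in DN Il2ra+ cells and 108 CPM in DP cells. CD8-only and DN Il2ra+ cells did not differ beyond counting error in that order. WT DN Il2ra- cells also held 3337 CPM of 6 summed myeloid markers, all 6 of them found, and the part of such cells in their Bcl2 level was not tested. In the preleukemic thymus the 4 stages other than DP lay between 83.9 and 132 CPM, and DP cells were at 26.9 CPM. DN Il2ra+ cells there, at 132 CPM (122 to 142), were above DN Il2ra- cells at 87.5 CPM (83.5 to 91.7) and CD8-only cells at 83.9 CPM (78.6 to 89.4) with intervals that did not overlap, while the 46 CD4-only cells overlapped each of these. In T-ALL#1 the range was 14.8 CPM (DP) to 35.4 CPM (DN Il2ra-) and in T-ALL#2 8.61 CPM (DP) to 21.6 CPM (CD4-only). No stage of either leukemia reached the lowest WT level.

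Bcl2l1 was highest in DP cells in each library. DP cells held 128 CPM in WT, 33.4 CPM in the preleukemic thymus, 55.0 CPM in T-ALL#1 and 20.8 CPM in T-ALL#2. DN Il2ra+ cells held 14.0, 17.1, 16.6 and 9.32 CPM in the same order. The gap of DP cells to the next stage exceeded counting error in WT and T-ALL#1, and not in the other libraries. Mcl1 was lowest in DN Il2ra+ cells in each library, at 356 CPM in WT, 185 CPM in the preleukemic thymus, 131 CPM in T-ALL#1 and 106 CPM in T-ALL#2. That rank exceeded counting error in 3 libraries and not in the preleukemic thymus. Bax was highest in DN Il2ra+ cells in the 3 transgenic libraries, at 132, 278 and 268 CPM, and lowest in DP cells in WT, preleukemic and T-ALL#1, at 84.6, 101 and 216 CPM. The gap of DP cells to the next stage of Bax exceeded counting error in T-ALL#1 only.

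**Figure D3:**
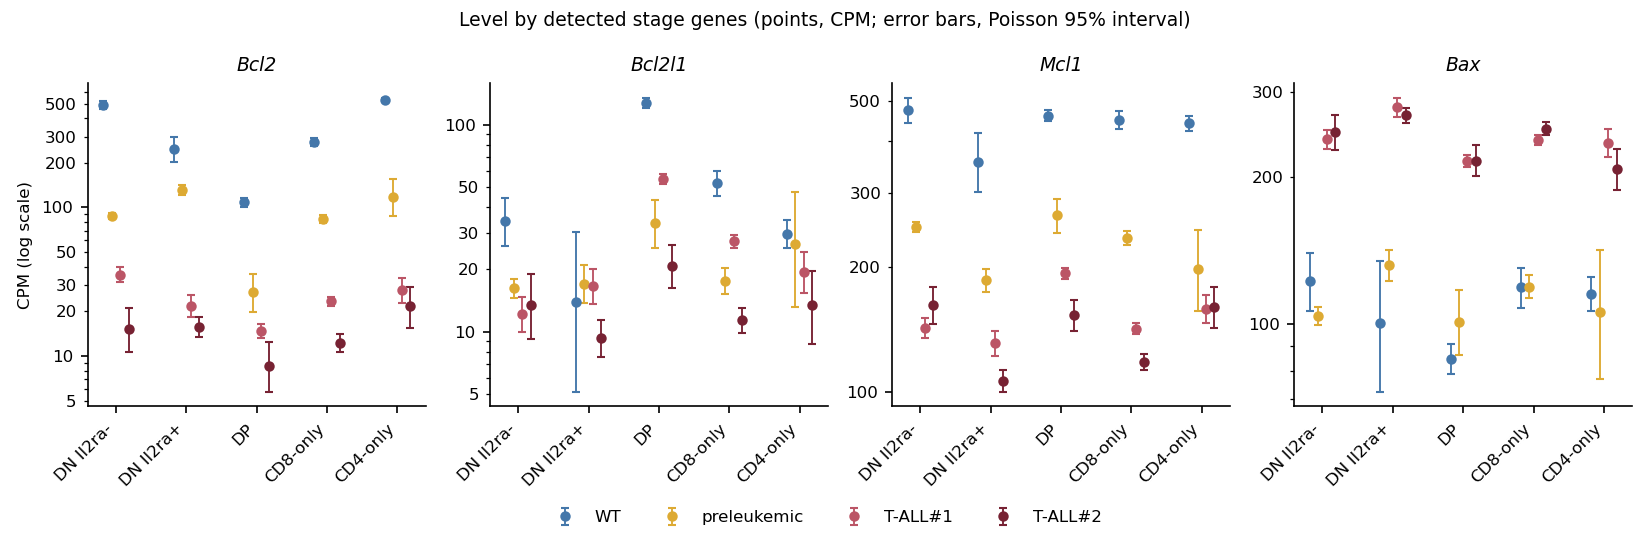
Level of Bcl2, Bcl2l1, Mcl1 and Bax by stage genes detected, in CPM on a log axis with exact Poisson 95% intervals, 1 color per library. In each library Bcl2 is lowest and Bcl2l1 highest in DP cells, beyond counting error in 3 and 2 libraries. Bax points of both leukemias lie above all those of the other libraries.

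Stages were compared over the 4 animals with edgeR's quasi-likelihood test, in which the sums of an animal form a block. P-values are adjusted over all genes tested by the Benjamini-Hochberg method. The fit held the sums of all stages of each animal (12 residual degrees of freedom), so its spread draws on stages beyond those compared. The 4 animals are of 3 groups, so the spread includes differences between groups. Between DN Il2ra+ and DP cells 4 of 10 members passed, against 14.1% of all 11285 genes. Bcl2 was higher in DN Il2ra+ cells by a log2 change of 1.40 (SE 0.28, adjusted p = 0.0065) and Bax by 0.45 (SE 0.11, adjusted p = 0.014). Bcl2l1 was lower by a log2 change of -1.51 (SE 0.24, adjusted p = 0.0024) and Mcl1 by -0.41 (SE 0.10, adjusted p = 0.015). Each of these 4 went the same way in 4 of 4 libraries. The other 6 members did not pass, with log2 changes between -0.42 (Bcl2l11) and 0.21 (Pmaip1). Bax and Mcl1 lost the call when the preleukemic thymus or either leukemia was left out, with adjusted p of 0.051 to 0.108 by edgeR. Mcl1 also missed the threshold by DESeq2 (adjusted p = 0.31), and Bcl2 without cells holding other-cell markers (adjusted p = 0.14). That filter, on 21 markers, took out 1194 WT, 1929 preleukemic, 2737 T-ALL#1 and 1328 T-ALL#2 cells. A strict list of 17 markers took out 15 (T-ALL#2) to 47 (WT) cells, and 4 of 10 members then passed, beside 1656 of 11217 genes. Among non-cycling cells alone 4 of 9 members passed, 1 higher and 3 lower, beside 1789 of 10383 genes. With the gate on thinned cells 6 of 10 members passed, 2 higher and 4 lower, beside 2952 of 11295 genes. Gamma-delta T-cell markers, all 3 found, summed to 1154 CPM in DN Il2ra+ and 258 CPM in DP cells of WT and to 1077 and 1032 CPM in the preleukemic thymus, and lay between 21.1 and 157 CPM in the leukemias. Their part in the result was not tested.

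Between CD4-only and DP cells 2 of 10 members passed, against 1.88% of 11285 genes. Bcl2 was higher in CD4-only cells by a log2 change of 1.81 (SE 0.29, adjusted p = 0.011), with 4.88-fold in WT, 4.37-fold preleukemic, 1.88-fold for T-ALL#1 and 2.51-fold for T-ALL#2. Bcl2l1 was lower by a log2 change of -1.30 (SE 0.26, adjusted p = 0.031), and lower in 4 of 4 libraries. Neither passed without WT (adjusted p = 0.160 and 0.168) or without T-ALL#2 (adjusted p = 0.052 for both), and Bcl2l1 passed in none of the 4 fits with 1 library left out. Bcl2 also missed the threshold without cells holding other-cell markers (adjusted p = 0.052). With the strict list of markers 2 of 10 members passed, beside 322 of 11217 genes. In WT, gamma-delta T-cell markers summed to 37.3 CPM in CD4-only and 258 CPM in DP cells and 4 hemoglobin genes to 1.27 and 237 CPM, and their part was not tested.

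Cycling cells were those with more than 72.9 UMIs per 10000 in 97 genes of S and G2/M phase. That limit came from splitting the scores of leukemic DN3-gated cells (gate below) into a low and a high group, and was applied to every library. Cycling cells made up 15.2% of WT, 24.6% of preleukemic, 40.7% of T-ALL#1 and 43.0% of T-ALL#2 cells. Mcl1 was lower in cycling cells of each library, at 249.7 against 535 CPM in WT, 159 against 293 CPM in the preleukemic thymus, 121 against 239 CPM in T-ALL#1 and 100.4 against 156 CPM in T-ALL#2. Bbc3 was lower too, at 7.22 against 36.6 CPM in WT, 12.3 against 31.7 CPM in the preleukemic thymus, 8.56 against 21.5 CPM in T-ALL#1 and 18.1 against 31.5 CPM in T-ALL#2. In the fit 4 of 10 members passed, against 52.8% of 11700 genes, so passing here does not set the members apart from other genes. The log2 change was -0.76 for Mcl1 (SE 0.10, adjusted p = 8.5e-04) and -1.26 for Bbc3 (SE 0.21, adjusted p = 0.0026).

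The members that rose in cycling cells were Bax, by a log2 change of 0.46 (SE 0.13, adjusted p = 0.019), and Bid, by 0.84 (SE 0.29, adjusted p = 0.049). Bax CPM was higher in cycling cells of 3 of 4 libraries and in WT stood at 96.1 against 105 CPM. The fit reads changes relative to TMM factors, which shifted cycling against non-cycling sums by -0.09 to -0.31 on the log2 scale. Bid was at 25.9 against 11.6 CPM in WT and 52.1 against 18.8 CPM in the preleukemic thymus, and at 36.9 against 31.8 CPM in T-ALL#1 and 28.3 against 27.3 CPM in T-ALL#2. Its call was lost without WT, without the preleukemic thymus or without T-ALL#1 (adjusted p = 0.067 to 0.093), and with no filter on low counts (adjusted p = 0.12). That of Bax was lost without the preleukemic thymus (adjusted p = 0.061), without T-ALL#1 (adjusted p = 0.085) and with the cycling limit at the median (adjusted p = 0.098). Bcl2 missed the threshold at a log2 change of -0.88 (SE 0.32, adjusted p = 0.059), with 82.5 against 370.3 CPM in WT, 55.0 against 116 CPM preleukemic, 17.6 against 32.1 CPM in T-ALL#1 and 14.3 against 12.8 CPM in T-ALL#2. Without T-ALL#2 its change was -1.15 (adjusted p = 0.016) and without WT it was -0.45 (adjusted p = 0.15).

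Whether the effect of cycling differed between the leukemias and the other libraries was tested with an interaction term. WT and the preleukemic thymus, of different genotypes, stood together as replicates of 1 side, on 2 residual degrees of freedom. It passed for 0 of 10 members and for 0 of 11700 genes by edgeR, with 944 genes at an unadjusted p under 0.05. The term for Bcl2 was 1.11 (SE 0.45, adjusted p = 0.62). The term for Bid was -1.32 (SE 0.23, unadjusted p = 4.8e-04, adjusted p = 0.19), and that for Bcl2l1 was -1.06 (SE 0.26, adjusted p = 0.33). Bcl2l1 was at 22.5 against 54.9 CPM in cycling and non-cycling cells of T-ALL#1 and 10.4 against 14.1 CPM in T-ALL#2. It was at 81.1 against 75.7 CPM in WT and 17.5 against 17.7 CPM in the preleukemic thymus. These sums pool stages, and 20.7% of DP and 8.86% of CD4-only cells of WT were cycling. Among DP cells alone Bcl2l1 was lower in the cycling ones of WT as well, at 100.4 against 149.5 CPM. It was also lower there in both leukemias, at 33.9 against 84.97 CPM in T-ALL#1. In the preleukemic thymus it was at 36.8 against 28.1 CPM, with overlapping intervals. The interaction was not tested within a stage. With no filter on low counts Bid passed (adjusted p = 0.023), 1 of 10 members among 65 of 19283 genes.

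DN3 cells, the stage in which this leukemia is held to renew itself, were gated by 0 UMIs of Cd4, Cd8a and Cd44 and an Il2ra level above 0.5 (natural log of 1 plus UMIs per 10000). They were divided at the same limit on cell-cycle genes into dormant (dDN3) and proliferative (pDN3) cells, with 262 and 122 cells in the preleukemic thymus, 166 and 151 in T-ALL#1 and 198 and 236 in T-ALL#2. The names are those of the paper, which for its leukemic cells merged clusters by their Mki67 expression, so the sets need not match. WT had 3 pDN3 cells and was left out. Mcl1 was higher in dDN3 cells of each library, at 253 against 133 CPM in the preleukemic thymus, 205 against 111 CPM in T-ALL#1 and 131 against 96.9 CPM in T-ALL#2. Bbc3 was also higher, at 26.3 against 3.58 CPM (8 UMIs), 20.5 against 10.0 CPM and 30.8 against 20.6 CPM in that order. Bax was lower, at 108 against 133 CPM, 209.8 against 298 CPM and 219 against 288 CPM.

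In the fit of dDN3 against pDN3 cells 3 of 9 members passed, against 34.9% of 9131 genes. Log2 changes were 0.66 for Mcl1 (SE 0.14, adjusted p = 0.0034), 1.10 for Bbc3 (SE 0.29, adjusted p = 0.012) and -0.49 for Bax (SE 0.14, adjusted p = 0.019). Pmaip1 was removed by the filter on low counts. Mcl1 and Bax lost the call without T-ALL#1 (adjusted p = 0.095 and 0.32). Bax also missed the threshold without cells holding other-cell markers, where 2 members passed as higher and 0 as lower. With the strict list of markers 3 of 9 members passed, beside 3180 of 9124 genes. Bcl2 gave a log2 change of 0.03 (SE 0.20), with 170 against 115 CPM in the preleukemic thymus, 23.4 against 20.6 CPM in T-ALL#1 and 10.8 against 17.5 CPM in T-ALL#2. Bid was at 14.4 against 62.7 CPM in the preleukemic thymus, 28.5 against 26.8 CPM in T-ALL#1 and 31.5 against 28.7 CPM in T-ALL#2, and did not pass (adjusted p = 0.36). These cells are part of those in the cycling comparison, so the 2 results are not independent.

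**Figure D4:**
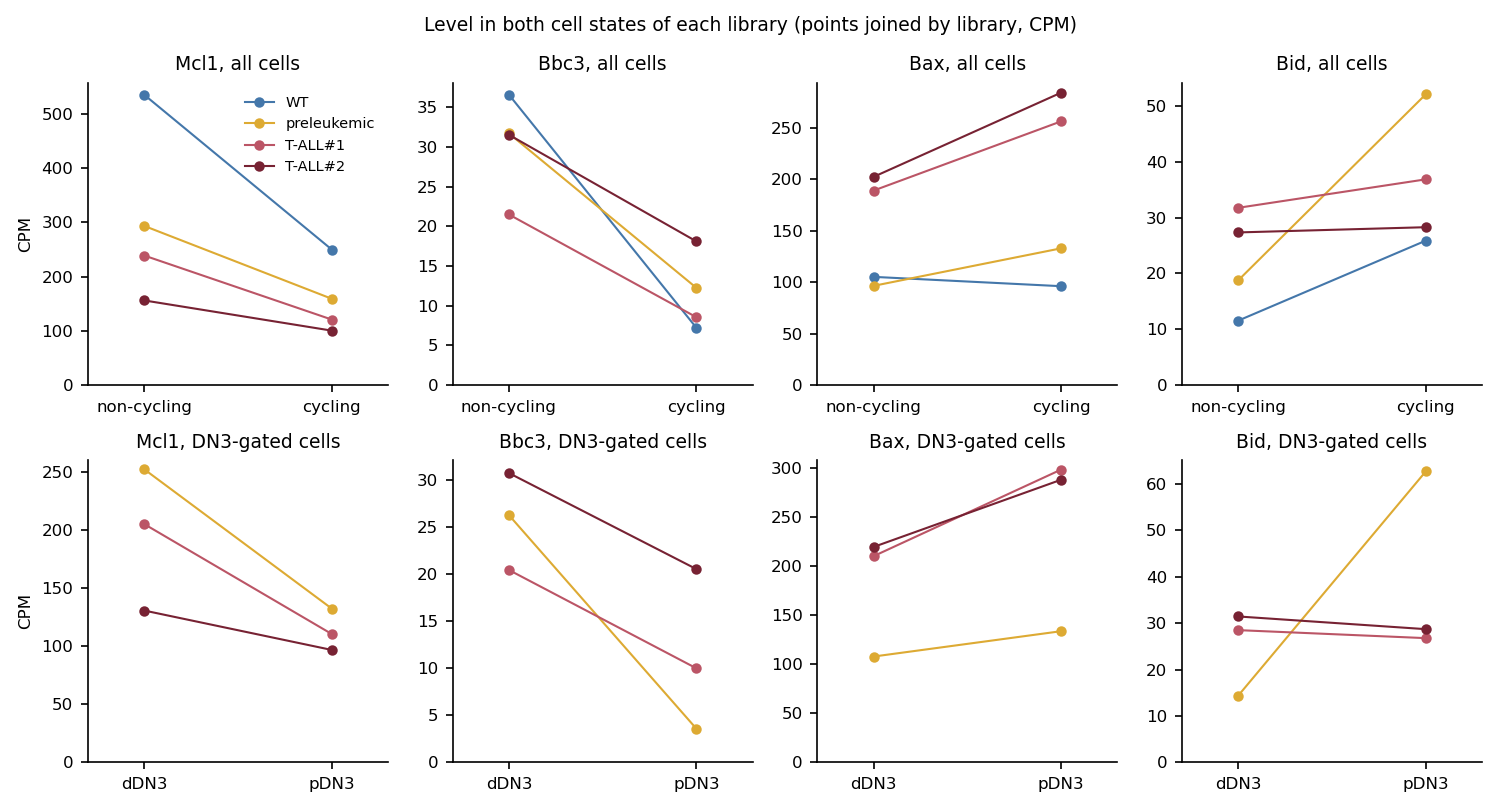
Level in CPM of Mcl1, Bbc3, Bax and Bid in both cell states of each library, joined by a line, for cycling against non-cycling cells (top) and DN3-gated cells (bottom). Lines of Mcl1 and Bbc3 fall toward the cycling state in every library drawn, while Bid goes from 18.8 to 52.1 CPM in the preleukemic thymus and from 27.3 to 28.3 CPM in T-ALL#2.

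S1pr1 encodes the receptor by which mature thymocytes leave the thymus, and at least 1 UMI of it was found in 466 WT, 225 preleukemic, 122 T-ALL#1 and 52 T-ALL#2 cells. Between these cells and those with none, 1 of 10 members passed, against 16.0% of 11251 genes. It was Mcl1, higher by a log2 change of 0.40 (SE 0.12, adjusted p = 0.031), at 491 against 444 CPM in WT, 309 against 233 CPM in the preleukemic thymus, 238 against 157 CPM in T-ALL#1 and 164 against 122 CPM in T-ALL#2. Of S1pr1-detected cells 7.69% to 12.9% were cycling, against 16.1% to 43.9% of the others. Among non-cycling cells alone the change of Mcl1 was 0.13 (adjusted p = 0.65), and it missed the threshold without the preleukemic thymus or either leukemia (adjusted p = 0.074 to 0.18 by edgeR). Bcl2 was at 170 against 87.4 CPM in the preleukemic thymus and 80.7 against 21.4 CPM in T-ALL#1, but at 279 against 288 CPM in WT and 9.75 against 13.7 CPM in T-ALL#2 (7 UMIs), and did not pass (log2 change 0.77, adjusted p = 0.25). Bcl2l1 was 3.82-fold lower in S1pr1-detected cells of WT, at 23.0 against 87.8 CPM, and did not pass over the 4 libraries (adjusted p = 0.64).

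**Figure D5:**
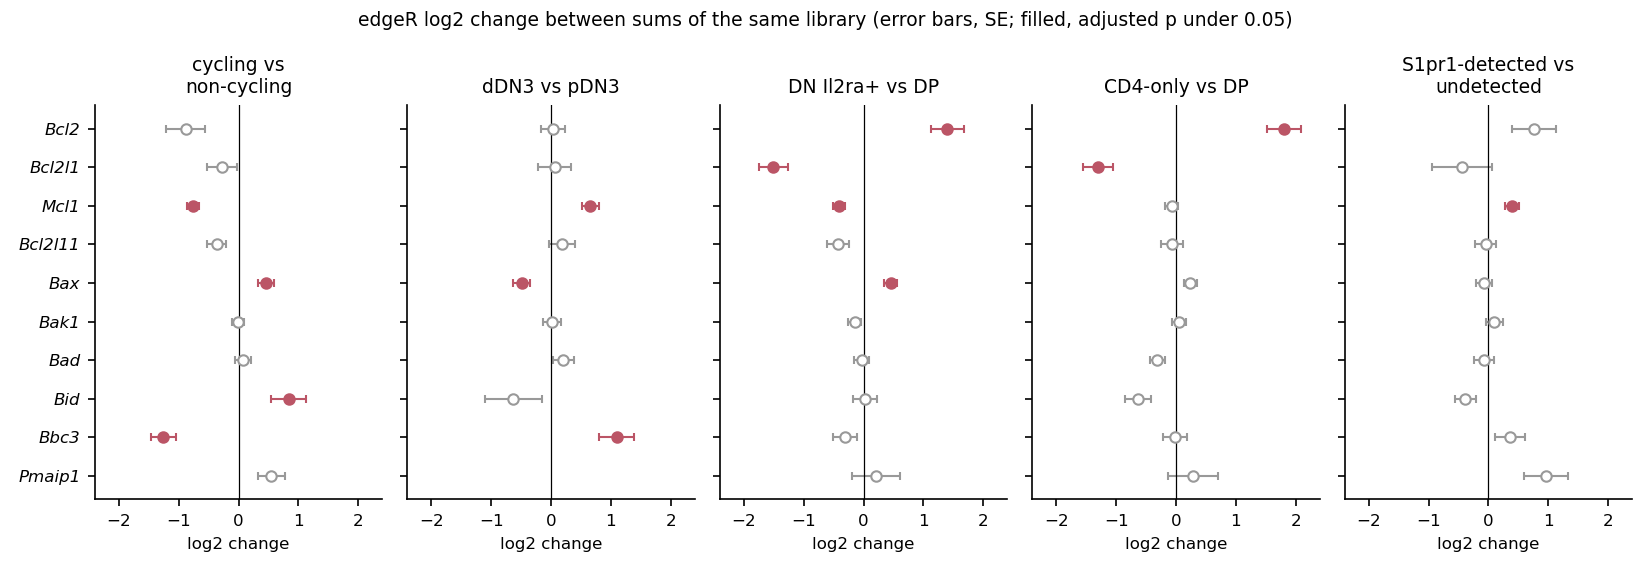
Log2 change of each member in 5 comparisons between cell states within the same animals, from edgeR with a block for the animal, with SE as error bars and filled circles for adjusted p under 0.05. From left to right (cycling, dDN3, DN Il2ra+, CD4-only, S1pr1) filled circles number 4, 3, 4, 2 and 1, and Pmaip1 has no point in the dDN3 panel.

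Other genes of the pathway were counted in 3 lists, with the same edgeR fits and adjustment over all genes. The share of all genes that passed was 52.8% for cycling, 34.9% for dDN3, 14.1% for DN Il2ra+, 1.88% for CD4-only and 16.0% for S1pr1. Of 14 further BCL2 family genes, 11 were tested between cycling and non-cycling cells, and 1 rose and 7 fell in cycling cells (median log2 change -0.71, against -0.09 over all genes). The largest falls were those of Bcl2a1b (-3.07), Bmf (-1.88), Bcl2a1a (-1.87) and Bcl2a1d (-1.65). The 3 Bcl2a1 genes are near-identical copies whose counts are uncertain, and their product A1 is a survival protein, while Bmf is BH3-only. Of 16 genes of the apoptosome, caspases and inhibitors 9 rose and 3 fell (median 0.45), with Cycs (1.27), which encodes cytochrome c, above 0 and Birc3 (-1.31), an inhibitor of apoptosis, below. Of 16 regulators of the family 0 rose and 6 fell (median -0.33), led by Foxo1 (-1.29), Nr4a1 (-1.06), Ddit3 (-0.87) and Stat5b (-0.60), all of them transcription factors.

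In dDN3 against pDN3 cells 4 of the further family genes were tested, and 1 rose (Bnip3l, 0.48), 0 fell and 3 did not pass. Of 15 genes of the apoptosome list 2 rose and 6 fell (median -0.41, against 0.04 over all genes), among them Cycs (-1.27), Birc3 (1.18) and Birc2 (0.98). Of 14 regulators 4 rose and 1 fell, with Foxo1 at 1.27, Ddit3 at 0.90, Stat5b at 0.64 and Foxo3 at 0.56. In DN Il2ra+ against DP cells Tcf7 was lower by a log2 change of -0.63 and Stat5b by -0.50, and Trp53 was higher by 0.48. Over that comparison 1 regulator rose and 4 fell of 15, while 3 rose and 1 fell of 16 in the apoptosome list and 0 passed of 10 further family genes. In CD4-only against DP cells 2 regulators fell of 15, among them Mdm2 (-0.39), 1 further family gene rose of 10 (Bcl2a1b, 4.29) and 0 of 16 passed in the apoptosome list. UMIs of Bcl2a1b in CD4-only and DP cells were 142 and 13 in WT and 16 and 2 in the preleukemic thymus. They were 5 and 6 in T-ALL#1 and 10 and 2 in T-ALL#2. In S1pr1-detected cells Foxo1 (1.75), which drives S1pr1 and Il7r programs, and Il7r (0.98), a receptor upstream of Bcl2, were the 2 of 16 regulators that rose, and 0 fell. Of the apoptosome list 2 rose and 2 fell of 16 there, and 0 of 11 further family genes passed.

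Genes with the pattern most like each member were sought by Pearson's r of log2(CPM + 1) over the 20 sums of 5 stages in 4 libraries, among 7787 genes. For Bcl2 these were Grcc10 (0.98), Lfng (0.98) and Pdia4 (0.97). For Mcl1 they were Aplp2 (0.96), Tmc6 (0.96) and Tgoln1 (0.96), for Bax Vgll1 (0.97), Mettl26 (0.97) and Nme1 (0.97), and for Bcl2l1 Glcci1 (0.94), Zfp410 (0.94) and Serinc5 (0.91). For Bid they were Sf3b6 (0.93), Mcm6 (0.91) and Tex30 (0.91), for Bcl2l11 Arpc4 (0.91), C87436 (0.90) and Ubl3 (0.90), and for Bad Asrgl1 (0.90), Cdc16 (0.89) and Tcf12 (0.88). The best r was 0.87 for Bbc3 (Brd2), 0.86 for Pmaip1 (Borcs6) and 0.80 for Bak1 (P4ha1). Among members, Bcl2 and Mcl1 had r = 0.85, Bcl2 and Bax r = -0.77 and Mcl1 and Bax r = -0.84 over the same sums. The sums of a library share its depth and its animal, so these values describe the libraries as much as the stages.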

How the data were processed

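Single-cell libraries of 4 thymi were read from the deposited matrices of UMI counts, which the authors made with Cell Ranger 3.0.2 (WT, preleukemic and T-ALL#1) or 4 (T-ALL#2) against mm10, per the submitters' processing notes. Raw counts were not normalized, and 0 columns of samples were left unused. The chemistry of each library is not given in the sources used here. The T-ALL#2 matrix held 1791965 barcodes, and 2700 were called as cells at 3416 UMIs or more, a limit set from the UMIs of the highest 10000 barcodes. Kept cells had over 500 genes, mitochondrial UMIs below 10% and a number of genes no more than 3 SD above the mean, and no doublet caller was run. Depth was 20492579 to 70561237 UMIs a library, and intervals cover counting error only.

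The members were fixed by name, and all 10 are described. They and the other lists were chosen with earlier results of these data known. Of the other lists at most 4 genes each are named, those with the largest absolute change among those that passed. Some genes that this rule would name are not reported here. Counts were summed per library and state and tested with edgeR 4.0.16 (R 4.3.3; TMM, filterByExpr, robust quasi-likelihood test) with the library as a block and Benjamini-Hochberg adjustment, at a threshold of 0.05. Genes that define a state were left out of its test. Sums compared within a block come from 1 animal, and for cycling, S1pr1 and dDN3 their deviations correlated at r = 0.64 to 0.92. The fits by stage held the sums of all stages of an animal. Each group has 1 library, or 2 for the leukemias, and groups were compared by ratios, with no test run between them. On simulated counts the fits recovered 93.8% of 2-fold changes for cycling (11824 genes), 73.7% for S1pr1 (11203 genes), 73.2% for DN Il2ra+ (11371 genes), 71.9% for CD4-only (11365 genes) and 82.1% for dDN3 (9096 genes). These counts were drawn at the common dispersion of each fit for every gene. The recovery of genes that vary more than this was not measured. DESeq2 1.42.0, other scalings, filters and gates and each library left out were alternatives. Leaving out cells with strict markers of other cell types was added after seeing the data. Python 3.11.15 with numpy 2.4.6, scipy 1.17.1 and pandas 2.3.3 was used elsewhere, and gene positions came from GENCODE M21.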

Additional observations from a re-analysis of the deposited data

Results flagged for a closer look

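The cycling to non-cycling ratio of Bad went opposite ways in WT, at 1.37 (1.14 to 1.63), and in the preleukemic library, at 0.849 (0.754 to 0.954), with counting intervals on either side of 1. The S1pr1-detected to undetected ratio of Bbc3 was 0.553 (0.412 to 0.729) in WT, against 1.74 (1.30 to 2.29) in the preleukemic library, 1.81 (1.14 to 2.73) in T-ALL#1 and 1.74 (1.16 to 2.51) in T-ALL#2. Each group but the leukemias is 1 library, and neither difference was tested.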

How the results depend on the processing

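All 14 calls of members kept their direction under every alternative run. Without the replicate block, 0 members passed in each of the 5 comparisons, and genes passing numbered 878 (cycling), 244 (dDN3) and 0 (S1pr1, DN Il2ra+ and CD4-only). With 1 library left out, members passing numbered 2 to 5 for cycling, 0 to 2 for S1pr1, 2 to 4 for DN Il2ra+, 0 to 1 for CD4-only and 1 to 3 for dDN3, and genes passing fell to 7 for CD4-only (without T-ALL#2), 456 for DN Il2ra+ (without T-ALL#1), 1061 for S1pr1 (without the preleukemic library) and 1821 for dDN3 (without T-ALL#1). For S1pr1, 0 members passed with no filter on low counts, without cells holding other-cell markers (758 genes) or in non-cycling cells (577 genes), and 2 with the gate on thinned cells. For CD4-only, 1 member (Bcl2l1) passed without cells holding other-cell markers. For the interaction, 1 member passed with no filter, and DESeq2 was not run for it. DESeq2 called 497 genes for CD4-only and 1700 for dDN3. Other-cell markers left 717 genes for DN Il2ra+ and 1725 for dDN3, and thinned gates gave 2952 for DN Il2ra+ and 362 for CD4-only, where non-cycling cells alone gave 427 and strict markers 322. Members past 2-fold were 3 with TMM factors in DP cells of T-ALL#1 and 4 at 1.5-fold in T-ALL#1 against preleukemic. Bid in S1pr1-detected cells, not called, turned to 0.24 without cells holding other-cell markers and 0.085 in non-cycling cells. The causes were not tested. Alternatives of single members were compared for the 25 pairs of member and comparison at an unadjusted p under 0.05, a limit set after the results were seen. Of the 34 other pairs, 21 changed sign and 5 passed under at least 1 alternative. Pmaip1, at 55 to 191 UMIs a library, is limited by depth.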
